A study of Homo sapiens with 14 samples.

Results

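The regions described here are 5680 stretches of the genome that carried a FLI1 peak in both FLI1 libraries of set A and in neither FLI1 library of set B. They were found by merging overlapping rows of the 4 FLI1 peak lists on the autosomes and X into 55089 regions and keeping those that held a row of each set A list and no row of a set B list. They made up 10.3% of the merged regions, and 22.6% of the 25157 regions found in both set A lists. The number depends on requiring both set A lists: it was 15373 without set A replicate 1 and 11799 without set A replicate 2. All values come from TC-32, an Ewing sarcoma cell line, labelled wild type and with no treatment, so the sets share genotype, line and treatment. The series holds 14 CUT&RUN libraries, titled A or B and replicate 1 or 2, and what the letters stand for is not given. FLI1 was profiled in both sets, H3K27ac in set A, and H3K9me3 and H3K27me3 in set B, each with 2 libraries. IgG controls were made in both sets. Nothing in the labels says whether the replicates were separate cultures.

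TC-32 cells carry EWSR1::FLI1, a fusion of part of EWSR1 to the DNA-binding part of FLI1, an ETS transcription factor. ETS factors bind a GGAA core, at single high-affinity sites written CCGGAA and, for this fusion, at microsatellites made of GGAA units in a row. At such repeats the fusion is known to open chromatin and recruit enhancer cofactors, and H3K27ac marks active enhancers and promoters. H3K9me3 marks heterochromatin and silenced repeats, and H3K27me3 marks genes silenced by Polycomb. CUT&RUN releases and sequences the DNA beside an antibody's target, and here a peak's fold is its signal over the IgG library, as the authors deposited it.

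The sequences below show the kinds of site among the 5680 regions, in hg38. The first 3 are the GGAA runs, with 20 bases either side, inside 3 of the 4 regions of highest fold, all on chromosome 5 near the SMN1 and SMN2 duplication. They lie at chr5:69707662-69707753 (plus strand, nearest protein-coding start GTF2H2C), chr5:70287402-70287485 (plus strand, nearest start SMN2) and chr5:69847502-69847585 (minus strand, nearest start SERF1B). Capitals mark the run.
GTF2H2C side: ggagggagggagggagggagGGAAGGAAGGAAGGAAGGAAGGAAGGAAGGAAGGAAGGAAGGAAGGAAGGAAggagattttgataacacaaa
SMN2 side: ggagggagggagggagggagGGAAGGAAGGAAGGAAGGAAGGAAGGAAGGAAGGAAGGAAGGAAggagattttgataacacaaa
SERF1B side: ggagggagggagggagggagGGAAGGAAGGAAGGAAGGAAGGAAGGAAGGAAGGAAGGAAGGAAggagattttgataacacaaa
The runs are 13, 11 and 11 units long, and the 40 flanking bases differ at 0 positions between the first sequence and each of the others. The next pair shows 121 bases from 2 strong regions on the short arm of chromosome 21, at chr21:6218175-6218295 and chr21:7658606-7658726, both on the plus strand. No GGAA lies in this stretch on either strand.
Chromosome 21 short arm, first: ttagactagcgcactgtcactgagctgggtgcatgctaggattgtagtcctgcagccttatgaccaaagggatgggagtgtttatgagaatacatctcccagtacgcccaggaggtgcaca
Chromosome 21 short arm, second: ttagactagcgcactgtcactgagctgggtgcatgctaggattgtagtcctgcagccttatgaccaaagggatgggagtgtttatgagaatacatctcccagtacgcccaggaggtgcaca
The pair differs at 0 of 121 bases. The last sequences belong to regions with no repeated sequence at the summit, and the runs shown lie within 250 bp of it. The longest GGAA run near a summit of the 5680 regions is in a SHROOM4 intron, at chrX:50618261-50618440 (minus strand). It ends at 50618420, before the region itself begins. A PPHLN1 intron holds a run at chr12:42278021-42278136 (plus strand). The stretch at chr10:29928298-29928409 (plus strand) lies between genes, with JCAD as its nearest start. Its run ends at 29928389, before the region begins at 29928401. The site at chr10:129834059-129834179 (plus strand) lies between genes with EBF3 as its nearest start, and there capitals mark a GGAA core.
SHROOM4 intron: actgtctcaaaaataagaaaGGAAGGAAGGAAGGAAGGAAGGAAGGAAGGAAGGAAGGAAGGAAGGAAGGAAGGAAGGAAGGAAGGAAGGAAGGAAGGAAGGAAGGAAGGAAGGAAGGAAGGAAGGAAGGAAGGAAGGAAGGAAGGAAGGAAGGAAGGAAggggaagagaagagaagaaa
PPHLN1 intron: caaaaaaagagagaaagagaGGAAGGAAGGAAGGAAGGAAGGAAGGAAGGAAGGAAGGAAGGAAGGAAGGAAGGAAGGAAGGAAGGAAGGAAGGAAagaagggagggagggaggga
JCAD side: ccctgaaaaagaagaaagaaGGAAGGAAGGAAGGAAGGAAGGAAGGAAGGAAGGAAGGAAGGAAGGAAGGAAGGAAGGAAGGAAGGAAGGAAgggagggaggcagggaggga
EBF3 side: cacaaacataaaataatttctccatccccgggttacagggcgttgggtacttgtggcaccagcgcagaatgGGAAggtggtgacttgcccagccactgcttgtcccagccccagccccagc
The runs are 35 units at SHROOM4, 19 at PPHLN1 and 18 at JCAD.

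Set A-only regions had low folds beside regions of all 4 lists. Their median fold was 6.17 in set A replicate 1 and 6.32 in replicate 2, against 10.1 and 10.3 for the 16165 regions found in all 4 lists and 7.01 and 6.77 over all merged regions. Their median width of 588.5 bp lay between the 1161 bp of regions in all 4 lists and the 462 bp of regions found only in set B, where all merged regions had 513 bp. The regions were chosen by presence in the peak lists, which rests on these same fold and significance values, so the values are a description. On a log2 scale the folds of the replicates correlated across the 5680 regions with a Pearson r of 0.609, and with 0.865 across the 19477 regions of both set A lists that at least 1 set B list also held. Points of either correlation share their 2 libraries, and the set A-only regions span a narrower range.

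The rule fell mainly on the weak end of the set A lists. Regions of both set A lists were ordered by their mean percentile of fold and cut into 10 deciles. In the weakest decile 51.8% were in neither set B list, in the fifth decile 23.3%, and in the strongest decile 1.55%. The least significant row inside the rule had a −log10 q of 2.03 in replicate 1 and 2.07 in replicate 2. Just outside it lay 3312 regions that 1 set B list held, with a median set B −log10 q of 7.32 and a lowest of 2.02. Fragments per summit were solved from fold and p, only for rows with a −log10 p of at most 40. For the set A libraries their median was 16 and 15 at 5507 and 5486 of the set A-only regions. It was 24 and 21 at 11728 and 11542 of the 16165 regions of all 4 lists. For the set B libraries the median was 25 and 27 at 10978 and 12807 of those same 16165 regions. It was 18 and 19 at 3842 and 3897 of the set B-only regions. The more significant rows left out were a larger part of the regions of all 4 lists, and varied by library. These medians therefore compare unlike subsets and do not describe whole classes. The set B lists held 38221 and 29339 rows and the set A lists 35210 and 40590. Mean coverage was not measured over the genome but estimated as the low end of the IgG levels solved at peak rows. The estimate was 1.33 and 1.17 fragments per base in the set A FLI1 libraries and 0.551 and 0.586 in those of set B. Absence from a set B list means that no peak was called there, and the part of depth in the selection was not tested.

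**Figure D1:**
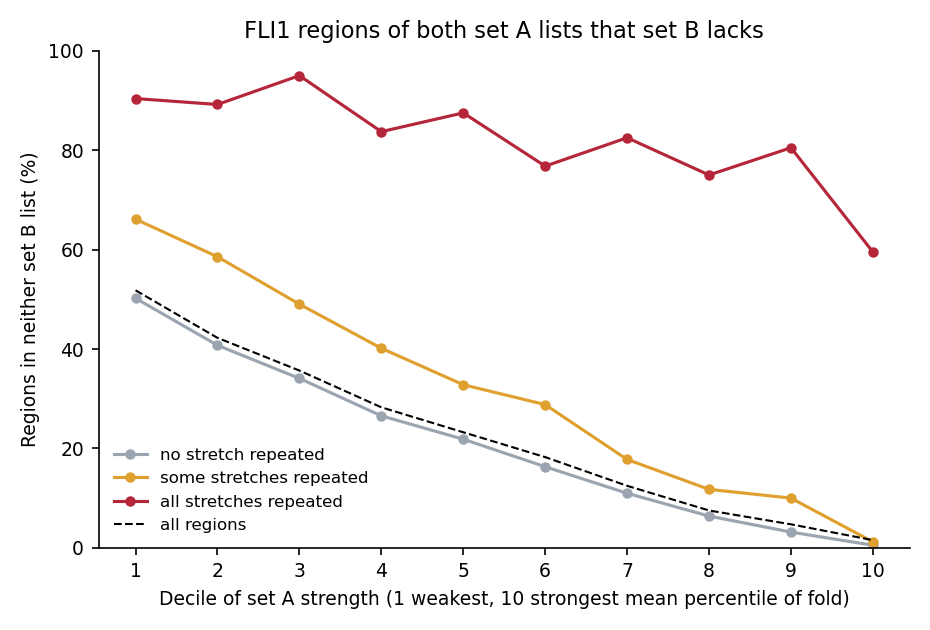
Share of FLI1 regions of both set A lists that neither set B list held (vertical axis, percent), by decile of set A strength (horizontal axis), for regions whose summit window is unrepeated, partly repeated or wholly repeated in the genome, and for all (dashed). The share falls from 51.8% to 1.55% for all regions, and lies at 59.5% or above in every decile for wholly repeated windows.

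The strongest set A-only regions lay in duplicated parts of the genome. Each region's summit window, 100 bases either side of the summit, was read as 7 stretches of 50 bases, and each stretch was counted on both strands of hg38. All 7 stretches occurred more than once in 340 set A-only regions (5.99%; 95% exact binomial interval, which covers counting error only and treats regions as independent, 5.38 to 6.63), where 1.34% of all merged regions did. The share was 0.254% in regions of all 4 lists. It was 0 of 3937 regions found only in set B, which allows up to 0.0762%. Here and below, the limit beside a count of 0 is 3 divided by the number of regions. The exact binomial interval for this count reaches 0.0937%. Without set A replicate 1 the set A-only share was 3.91%, and without set A replicate 2 it was 3.81%. Seen the other way, 415 regions of both set A lists were wholly repeated, and 81.9% of them were in neither set B list, against 21.1% of the 23494 without a repeated stretch. The same tilt stood in the complete lists: 1.48% and 1.69% of the set A FLI1 rows were wholly repeated, and 0.110% and 0.0716% of the set B FLI1 rows. By comparison, H3K27ac, from set A, had 0.165% and 0.124%, and H3K9me3, from set B, had 2.87% and 2.68%.

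All of the 12 regions of highest mean percentile were wholly repeated, as were 47 of the first 100 and 95 of the first 500. The region on the GTF2H2C side, at chr5:69703923-69711624, had folds of 104 and 160 and was 7702 bp wide, the widest of the 5680. Its summit sequence had a median of 8 copies in the genome. On the SMN2 side, chr5:70283572-70290201 had folds of 98.2 and 152. On the SERF1B side, chr5:69844375-69849533 had folds of 67.2 and 92.2. Their summits lay far from the starts that name them: 143 kb from GTF2H2C, 238 kb from SMN2 and 178 kb from SERF1B. These 3 regions lay 110897 to 283915 bp from the nearest row of a set B list. SMN2 makes a survival motor neuron protein, and the interval around it is one of the well-known segmental duplications of chromosome 5.

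Duplicated genes of chromosome 16 held 4 more of the 12. Near PDPR, which encodes a regulatory subunit of pyruvate dehydrogenase phosphatase, chr16:70088813-70089321 had folds of 73.3 and 88.9 and a set B row 483 bp away. A GGAA run of 4 units lay outside it, within 250 bp of its summit, and a region of all 4 lists lay 173 bp away. At the NOMO gene copies, the region in a NOMO3 intron had folds of 36.7 and 52.9, the one in a NOMO2 intron 45.8 and 35.6, and one 16.4 kb from the NOMO2 start 53.7 and 57.0. Each of these 3 had a median of 4 copies and no GGAA run. On X, chrX:76144872-76146251, with PBDC1 as the nearest start, had folds of 30.7 and 35.5, a CCGGAA site in its summit window, and 2 copies. The replicates ranked the PDPR and chromosome 5 regions above the other 8 in both lists.

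The other 4 of the 12 lay on the short arm of chromosome 21, where TPTE was the nearest annotated protein-coding start at 2863 kb or more. Their folds were 45.8 and 57.7, 36.5 and 41.6, 31.6 and 34.3, and 26.96 and 42.7. Over the first 13 Mb of chromosome 21, both set A lists shared 67 regions, of which 55 were in neither set B list. All 55 were wholly repeated. The set B lists had 13 and 10 rows in the same interval. With them, 41.5% of the chromosome's regions in both set A lists were set A-only, the highest share of any chromosome, where chromosome 19 had the lowest at 8.96%.

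The repeated windows were mostly low-copy. Of the 340, 305 had a median of at most 9 copies per stretch, and the median over the 340 was 4 copies. In all, 288 set A-only regions shared a 50-base stretch with another one, in 104 families of up to 16 regions, so those regions do not give independent values. CCDC200, a gene on chr17:43216941-43305397, held 17 set A-only regions in its body, more than any other protein-coding gene, and 16 of the 17 were wholly repeated. Small nuclear RNA genes lay within 500 bp of 13 of the 340 (3.82%), against 0.174% of all merged regions. The IgG level was solved at 5507 and 5486 of the 5680 regions, repeated or not, without the most significant rows. Its highest value at a summit there was 207 and 103 fragments in the set A libraries. At the solved regions of all 4 lists the highest was 17.99 and 8.45 in the set A libraries and 83.5 and 141.5 in the set B libraries. The part of reads with several genomic matches in these values was not tested.

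**Figure D2:**
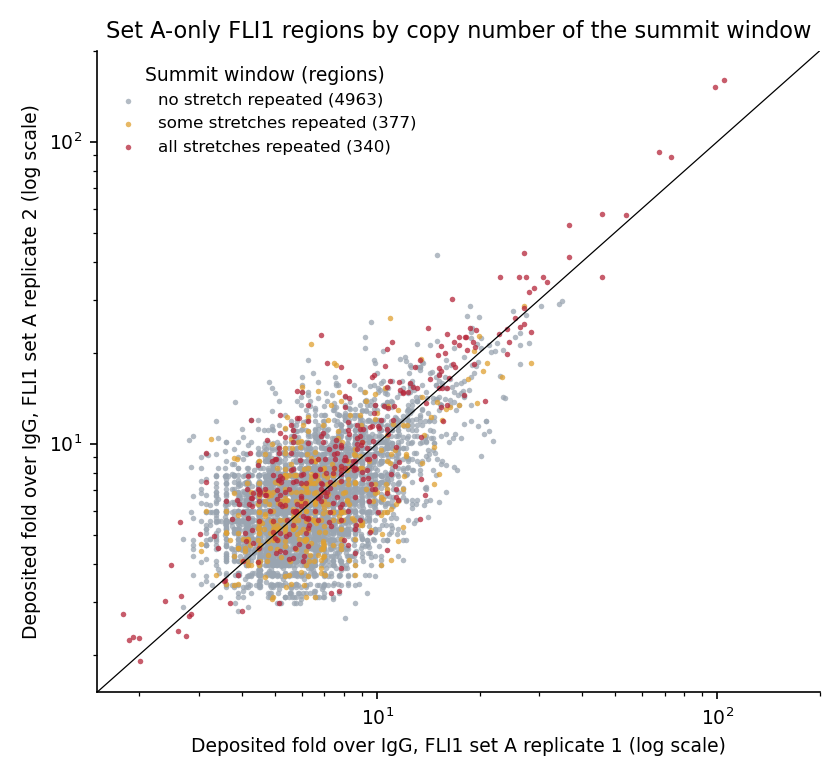
Deposited fold over IgG of each of the 5680 set A-only FLI1 regions in set A replicate 1 (horizontal, log scale) and replicate 2 (vertical, log scale), coloured by whether none, some or all of the 7 summit stretches recur in the genome. The line marks equal folds. The points above 40 in both lists are all wholly repeated, up to folds of 104 and 160.

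Unrepeated sequence still made up most of the set: 4963 regions (87.4%) had no repeated stretch, as did 93.5% of all merged regions. The strongest of these were picked out after the values were seen. THYN1, which encodes a thymocyte nuclear protein, had a region over its start at chr11:134252712-134253759 with folds of 34.9 and 29.8. The EBF3-side region on chromosome 10, 130 kb from the start of that early B-cell factor family transcription factor gene, had 34.3 and 29.1. The RET-side region, 32.4 kb from the start of the RET receptor tyrosine kinase gene, had 30.4 and 28.6. The JCAD-side region, 131 kb from the JCAD start, had 27.4 and 26.7 and a set B row 119 bp away. None of these 4 overlapped H3K27ac in both replicates. In the strongest decile of the set A lists, 12 of 2307 regions without a repeated stretch (0.520%) were set A-only.

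Set A-only regions were AT-rich. The median GC content of the summit window was 40.8%, against 51.7% at regions of all 4 lists, 57.7% at regions found only in set B and 47.3% over all merged regions. Below 40% GC lay 46.2% of set A-only regions, 19.6% of regions in all 4 lists and 3.58% of set B-only regions. Ordered by GC content, the share of both-set-A regions that set B lacked fell at each step, from 42.8% below 35% GC to 6.43% at 65% and above. The share of both-set-B regions that set A lacked ran the other way, from 1.18% to 25.7%, though not at each step: it was 20.9% from 55 to 60% GC and 16.8% from 60 to 65%. The regions without a repeated stretch had a median of 40.3%, and the wholly repeated ones 52.2%.

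Among regions without a repeated stretch, the GC pattern stood within bands of strength and away from gene starts. The shares that follow leave out every region with a repeated stretch. In the weakest quintile of set A strength and over 1 kb from a start, 65.7% of regions under 40% GC were set A-only, 45.7% of those from 40 to 55% and 26.6% of those at 55% and over. In the fourth quintile the same shares were 19.1%, 10.4% and 6.06%. In the strongest quintile they were 4.23%, 1.89% and 2.66%, so the order was not kept there between the 2 upper bands. The part of GC content in the split between the sets was not tested.

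**Figure D3:**
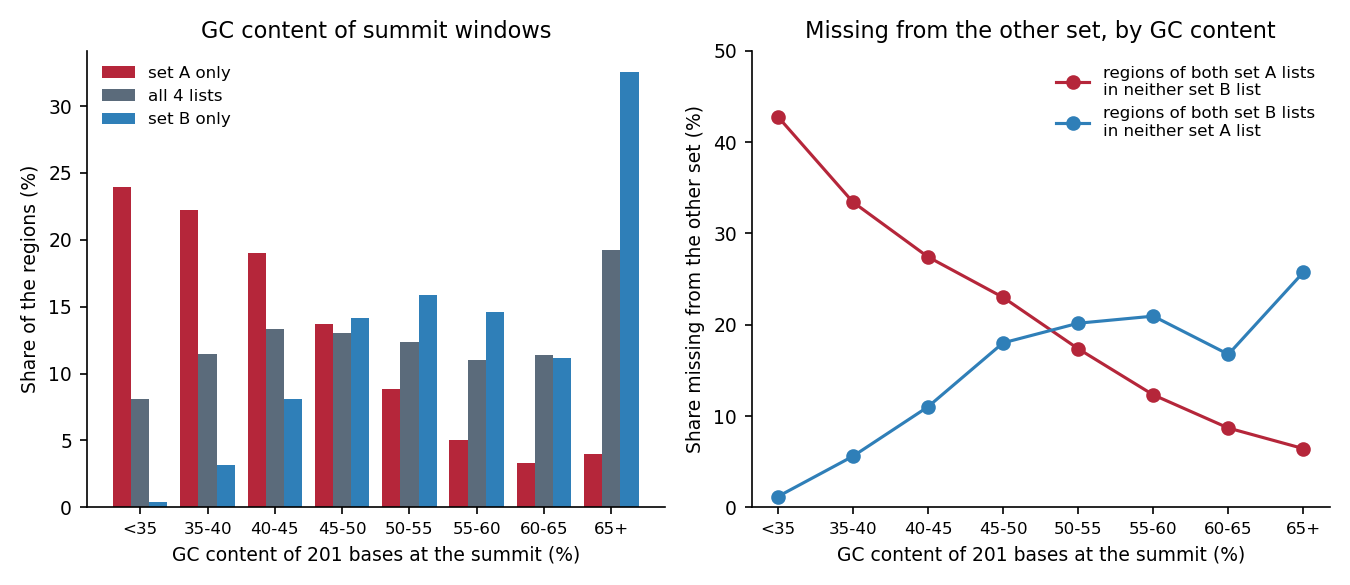
Left, share of set A-only regions, regions of all 4 lists and set B-only regions (percent) in each band of summit-window GC content. Right, share of regions of both lists of 1 set that neither list of the other set held, by the same bands: 42.8% to 6.43% for set A regions and 1.18% to 25.7% for set B regions, with a drop to 16.8% from 60 to 65% GC.

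Few set A-only regions lay at gene starts. Within 1 kb of a protein-coding start were 518 (9.12%), where 25.3% of all merged regions were. The share was 41.8% in regions of all 4 lists, 38.6% in set B-only regions and 14.6% in regions of both set A lists and 1 set B list. The median distance to a start was 37504 bp, against 6867 bp for all 4 lists. In each quintile of set A strength the share at a start stayed between 8.53% and 9.83%, while among regions that set B also held it went from 28.96% to 42.5%. Summits lay in a protein-coding gene in 49.3%, against 54.9% of all merged regions and 56.5% of regions in all 4 lists. They lay in a coding exon in 1.23%, against 2.79% and 4.03%, and in a UTR exon in 2.92%, against 8.24% and 12.9%. Even the 518 at starts had less GC, with a median of 53.2% against 62.7% for the 6751 of all 4 lists at starts.

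GGAA microsatellites lay near the summits of some set A-only regions, though not always inside the region. A run of at least 4 GGAA units (or TTCC, the other strand) lay within 250 bp of the summit in 266 set A-only regions (4.68%), where 3.46% of all merged regions had one. The share was 6.13% in regions of all 4 lists and 1.27% in set B-only regions. With set A replicate 1 left out of the selection the set A-only share was 3.03%, and with replicate 2 left out 2.92%. The median run was 12 units long here and in regions of all 4 lists, and 195 of the 266 had at least 10. Their median fold was 7.26 and 7.85 in the set A libraries, against 6.11 and 6.22 at the 5414 set A-only regions without a run and 29.6 and 32.8 at the 991 run-bearing regions of all 4 lists. Run length did not order the share that set B lacked, which was 21.6% at 4 to 6 units, 14.2% at 7 to 9, 21.7% at 10 to 12, 18.2% at 13 to 15 and 16.7% at 16 or more.

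At equal set A strength, runs were more frequent in set A-only regions in 4 of 5 quintiles. In the fourth quintile 11.7% had one, against 3.93% of regions that set B also held. In the strongest quintile the order turned, with 13.3% against 16.5%. The SHROOM4 region, beside the run of 35 units in an intron of this actin-binding protein gene, had folds of 5.14 and 7.08 and a set B row 35 bp away. NUP210L, a nucleoporin-like gene, had an intron region beside 28 units, with folds of 10.97 and 7.92 and a set B row 64 bp away. The summit window of this NUP210L region was wholly repeated, with a median of 41 copies. A region 1439 kb from the C4orf33 start lay beside 19 units, with folds of 13.1 and 13.8 and a set B row 34 bp away. PPHLN1, which encodes the periphilin subunit of the HUSH silencing complex, had 19 units inside its region, folds of 14.1 and 12.6, and no set B row nearer than 5793 bp. For 3 of these 4 a set B row thus lay beside the set A-only region, and the run lay outside that region. A region of all 4 lists also lay 35 bp from the SHROOM4 region and 64 bp from the NUP210L region, so set A held a peak there too. For C4orf33 the nearest region of all 4 lists was 1722410 bp away.

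Single ETS sites were scarce. The 6 letters CCGGAA, searched on both strands of the summit window, were found in 134 set A-only regions (2.36%), against 6.06% of all merged regions, 9.57% of regions in all 4 lists and 10.9% of set B-only regions. At the 518 gene starts the share was 7.34%, against 17.5% for all 4 lists at starts. The bare core GGAA was found in 87.2% of windows, against 89.8% of all merged regions. TGANTCA, the letters bound by AP-1, reads the same on both strands and was found in 7.32%, against 7.27%. CCAAT, bound by NF-Y, was found in 25.2%, against 23.7%. GC content also differed between these classes, and its part in the motif shares was not tested.

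**Figure D4:**
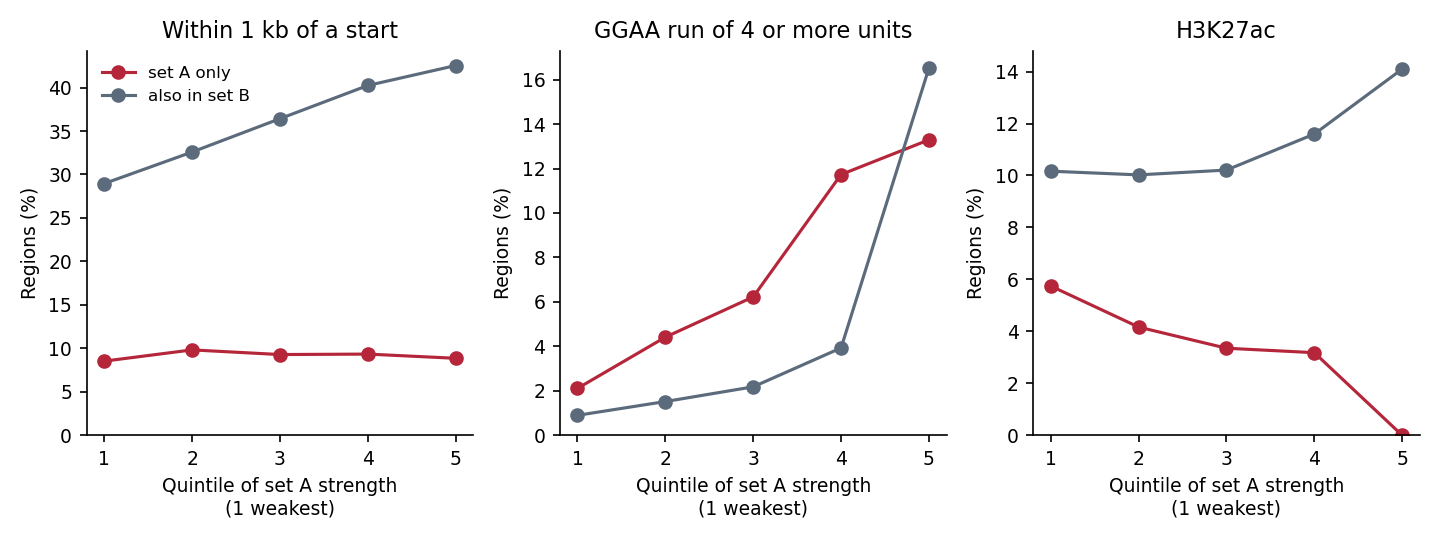
Share of regions (percent) within 1 kb of a protein-coding start, with a GGAA run of at least 4 units, and in H3K27ac of both replicates, by quintile of set A strength, for set A-only regions and for regions of both set A lists that set B also held. The H3K27ac share of set A-only regions falls from 5.75% to 0%, while that of the others goes from 10.2% to 14.1%.

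Histone marks covered few of the set A-only regions, and also little of the genome. Bases in both replicates' lists made up 0.096% of the autosomes and X for H3K27ac, 1.06% for H3K9me3 and 0.903% for H3K27me3. Any shared base counted as overlap, so shares of regions and of bases are not on the same scale. H3K27ac of both replicates overlapped 254 (4.47%; 6.55% in replicate 1 and 9.74% in replicate 2), where 6.77% of all merged regions overlapped it. The share was 12.4% in regions of all 4 lists and 3.84% in set B-only regions. H3K27ac was found at 0 of the 266 regions with a GGAA run, which allows up to 1.13%, against 137 of the 991 run-bearing regions of all 4 lists. It was also found at 0 of the 158 set A-only regions of the strongest quintile, which allows up to 1.90%. At gene starts 60 of 518 (11.6%) overlapped it, against 17.0% of the 6751.

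The 3 strongest set A-only regions inside H3K27ac were at SSC4D, MTRR and SBF2. The SSC4D intron region, chr7:76392809-76393531, had FLI1 folds of 21.9 and 10.2 and H3K27ac folds of 4.61 and 4.00. The MTRR region, 0.196 kb from the start of FASTKD3, had FLI1 folds of 12.5 and 15.2 and H3K27ac folds of 5.26 and 4.84. MTRR encodes methionine synthase reductase, and FASTKD3 a mitochondrial RNA-binding protein. The SBF2 intron region had FLI1 folds of 11.9 and 15.2 and H3K27ac folds of 4.74 and 6.43.

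H3K9me3 of both replicates overlapped 127 set A-only regions (2.24%; 3.77% and 2.46% by replicate), where 1.12% of all merged regions overlapped it. Regions of all 4 lists overlapped it in 1.07% and set B-only regions in 0.203%. The marked regions differed in kind. Of the 127, 0 lay within 1 kb of a start (which allows up to 2.36%) and 2 had a GGAA run, against 71 of 173 with a run among the marked regions of all 4 lists. Their median FLI1 folds were 5.90 and 5.94, against 37.2 and 38.8. The strongest were an intron of ENSG00000285733 on chromosome 6 (folds 19.7 and 13.6), ENSG00000283360 on chromosome 1 (11.7 and 15.04, wholly repeated) and a site 69.2 kb from the BACE2 start (10.6 and 10.2). Only 3 of the 340 wholly repeated regions were in H3K9me3.

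H3K27me3 of both replicates overlapped 23 set A-only regions (0.405%; 0.651% and 0.528% by replicate), where 0.55% of all merged regions overlapped it. Regions of all 4 lists stood at 0.198% and set B-only regions at 1.52%. The set A-only share was 0.267% without FLI1 set A replicate 1. ACTA1, the skeletal muscle actin gene, held the strongest, at chr1:229430853-229431702, with FLI1 folds of 16.3 and 16.3 and mark folds of 6.85 and 6.99. A site 70.7 kb from the GALNT9 start had FLI1 folds of 14.3 and 11.1. One 8.37 kb from the start of the homeobox gene BARHL2 had 10.3 and 11.9 with a set B row 135 bp away. H3K9me3 and H3K27me3 were mapped only in set B, so mark and set cannot be told apart when these shares are set beside that of H3K27ac.

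**Figure D5:**
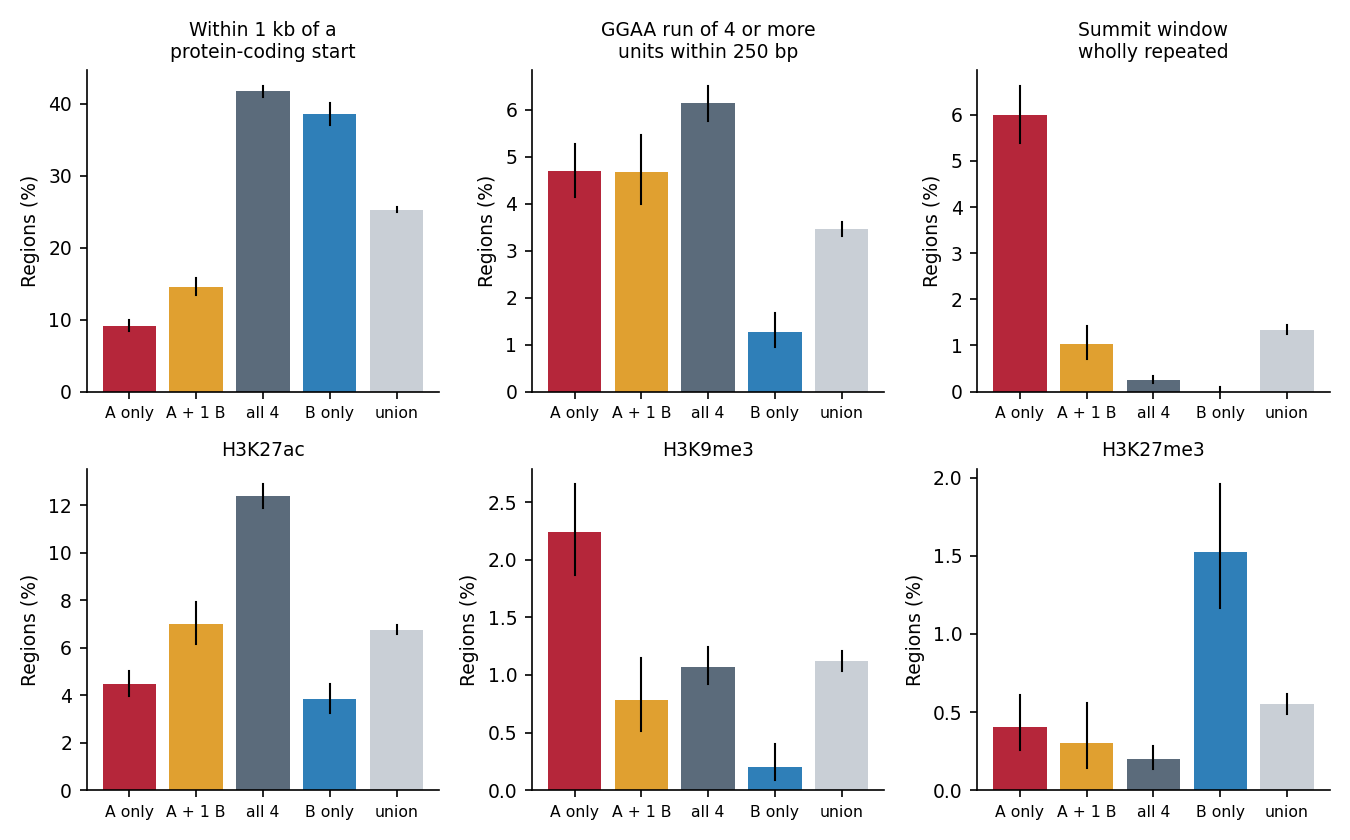
Share of regions (percent, with 95% exact binomial intervals for counting error) having each of 6 features, for set A-only regions, regions of both set A lists and 1 set B list, regions of all 4 lists, set B-only regions and all merged regions. Set A-only regions stand at 9.12% at starts, 5.99% wholly repeated and 2.24% in H3K9me3; the vertical scales differ between panels.

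Some set A-only regions lay close to a set B peak. A row of a set B list lay within 100 bp of 213 (3.75%), within 1 kb of 22.8% and within 10 kb of 54.8%. A region of all 4 lists lay within 10 kb of 2272 of the 5680, against 13.8% of the wholly repeated ones. Among regions of both set A lists and 1 set B list the share was 36.9%, and among set B-only regions 28.8%. All merged regions stood at 57.5%, a share that counts the regions of all 4 lists themselves. Another set A-only region lay within 10 kb of 27.2% of the 5680. The densest Mb outside repeated sequence was 29 to 30 Mb of chromosome 10, with 20 set A-only regions, 18 of them without a repeated stretch, beside 20 regions of all 4 lists. Among protein-coding genes, ERC2, a presynaptic active-zone protein, followed CCDC200 with 13 in its body. DLG2, a postsynaptic scaffold, held 12 and SDK1, a synaptic adhesion protein, 11. None of the regions in these 3 genes had a repeated stretch. These are long genes of 961, 2173 and 968 kb, and each also held regions of all 4 lists (21, 8 and 4).

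Genes known as activated targets of the fusion held set A-only regions in the body or within 10 kb in 13 of 25 cases (52.0%), where 14.5% of 19970 protein-coding genes did. Regions of all 4 lists were near 20 of the same 25 (80.0%), against 52.7% of all protein-coding genes. Set B-only regions were near 8 of the 25, against 17.5% of all protein-coding genes. Of 16 genes known as repressed by the fusion, 5 (31.25%) had a set A-only region, 10 a region of all 4 lists and 3 a set B-only region. Median body lengths were 20.9 kb, 13.05 kb and, over all protein-coding genes, 27.5 kb. The lists were chosen with earlier results of these data in view, and their genes differ in length and in neighbouring FLI1 peaks.

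Most set A-only regions at the activated genes had low folds. SOX6, a SOX-family transcription factor gene, held 6, all in introns, with folds from 4.12 to 7.39 in replicate 1 and 3.11 to 4.82 in replicate 2. SOX2, a pluripotency factor gene within the transcript SOX2-OT, had 4, of which one lay in its coding exon with folds of 3.81 and 5.54. BCL11B, a zinc-finger repressor gene, had 4. The one 26.9 kb from its start overlapped H3K27ac (folds 5.15 and 7.21), with FLI1 folds of 5.17 and 5.58 and a CCGGAA site. PRKCB, encoding a protein kinase C, had 4 intron regions with folds from 5.14 to 6.56 and from 4.83 to 12.5. IL1RAP, an interleukin-1 receptor subunit and Ewing sarcoma surface antigen, had 3 intron regions 259, 444 and 718 bp from set B rows. The nearest regions of all 4 lists lay 161, 186 and 60 bp from them, in the same order. KIT, a receptor tyrosine kinase gene, and PAPPA, encoding an IGF-binding protein protease, had 3 each. One of those at KIT lay 6 bp from a region of all 4 lists and 779 bp from a set B row. That KIT region overlapped H3K27ac, with mark folds of 4.85 and 6.54 and FLI1 folds of 4.95 and 7.85. NKX2-2, a transcription factor needed for the transformed state, had 1 at 2.58 kb from its start with folds of 5.66 and 9.40. IGF1 had 2, and CCND1, GSTM4, VRK1 and LIPI had 1 each. None of these had a GGAA run within 250 bp of its summit.

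Among repressed genes, TNC, encoding the matrix protein tenascin C, held 3 intron regions with folds from 4.48 to 5.56 and from 4.09 to 7.39. FOXO1, a forkhead factor gene, held 2 with folds of 9.03 and 7.85, and 7.40 and 6.92. CDKN1A, the p21 cell-cycle inhibitor gene, had 1 at 9.08 kb from its start with folds of 11.5 and 4.24. CCN1 and SNAI2 had 1 each, the latter over its start with a set B row 23 bp away.

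Gene families were set beside the 14.5% of all protein-coding genes that had a set A-only region in the body or within 10 kb. Zinc-finger genes named ZNF had a set A-only region in 45 of 515 (8.74%), against 302 (58.6%) with a region of all 4 lists. HOX genes had one in 10 of 39 (25.6%), and as many of them had a set B-only region. A region within 10 kb of several genes was counted for each, so clustered genes such as these do not give separate counts. Collagen genes had one in 11 of 44 and ionotropic glutamate receptor genes in 6 of 20. Cadherin and protocadherin genes had one in 10 of 88 (11.4%), potassium channel genes in 15 of 96 (15.6%) and ribosomal protein genes in 14 of 81 (17.3%), near the share of all genes. Olfactory receptor genes had set A-only regions in 9 of 416 (2.16%) and regions of all 4 lists in 8 (1.92%). Collagen and glutamate receptor genes are long, with median bodies of 145 and 273 kb, while HOX genes have 4.22 kb.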

How the data were processed

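CUT&RUN peak lists of 10 antibody libraries from TC-32 were used, and the 4 IgG libraries entered only as the controls named in the lists. Per the submitters' processing notes, cutadapt 4.4, Bowtie2, Picard 2.17.11 and MACS2 2.1.1 were used with GRCh38 (hg38). The notes give no order or settings. The deposited fold is the authors' ratio of signal over IgG at a peak. The deposited significance is the −log10 of the p-value and of the q-value, per the authors' lists. Lists were made per library and not pooled.

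Rows on the 22 autosomes and X that overlapped or touched were merged. The most significant set A row gave a region's summit. Marks were bases in both replicates' lists. Genes came from GENCODE release 44. Starts are those of protein-coding transcripts. Copies were exact matches of 50-base stretches, taken every 25 bases, in the non-alternate sequences of hg38. The copy count was right for 40 of 40 planted sequences in a simulated genome. Fragments were solved for rows with a −log10 p of at most 40, assuming a Poisson p and a pseudocount of 1, and simulated rows were recovered in 100% of cases. Analyses ran in Python 3.11.15 (numba 0.67.0, pysam 0.24.0, scipy 1.17.1, numpy 2.4.6, matplotlib 3.10.9, pandas 2.3.3).

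No test was run, since the regions were chosen by these same rows. Named regions were the 12 with the highest mean percentile of fold, the 4 with the longest GGAA runs, the 3 strongest per mark, the 4 genes with most regions, and those in or within 10 kb of the listed genes. Further names were added after values were seen, as said beside them. Not all of the strongest unrepeated regions listed are reported here. Members and gene lists were chosen with earlier results of these data known. Alternatives covered significance, nearby rows, distances, run length, mark overlap, and leaving out each library. The copy count and GC content, with their alternatives, were added after the data were seen.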

Additional observations from a re-analysis of the deposited data

How the results depend on the processing

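Of 84 alternative values, 45 stayed within the 95% interval of the value reported (for the number of regions within 1.5 times, for GC content within the SD of the set A lists) and 39 moved. With a −log10 q of at least 5 in the set A lists, 3723 regions were left, 5.94% with a GGAA run and 8.11% wholly repeated. When a set B row within 1 kb also counted as presence, 6.34% lay at a start, 3.63% in H3K27ac, and 7.27% were wholly repeated. The share near a start was 20.7% within 5 kb and 12.3% for starts of any annotated gene. A GGAA run lay within 500 bp in 6.74%, and within 250 bp in 4.07% of regions without a repeated stretch. With over 50% of stretches repeated the repeated share was 8.26%, and with alternate sequences counted it was 7.52%. The marks moved with their definition. With either replicate of a mark, 11.4% overlapped H3K27ac, 3.98% overlapped H3K9me3 and 0.775% overlapped H3K27me3, and within 1 kb of the mark lay 6.58%, 4.65% and 0.845%. Summits inside the mark gave 2.75% for H3K27ac and 1.36% for H3K9me3. Leaving out each library in turn, the number of regions ranged from 6704 to 15373, since fewer lists then had to hold or lack a row. Over the same settings the share at starts ranged from 8.81% to 11.1%, with a GGAA run from 2.92% to 4.84%, wholly repeated from 3.81% to 5.13%, in H3K27ac from 3.68% to 9.74%, in H3K9me3 from 1.79% to 3.77%, and in H3K27me3 from 0.267% to 0.651%. The median GC content ranged from 40.8% to 41.8%. Apart from those named, the cause of each move was not tested. No paired analysis was possible because no result comes from a test. The planned share in soft-masked repeats was not run, since the reference used holds no masking. Absence from set B shows only that no peak was called there. The estimated coverage of the set B FLI1 libraries was 0.551 and 0.586 fragments per base, against 1.33 and 1.17 in set A. At the solved regions of all 4 lists the median fragments per summit were 25 and 27 in set B and 24 and 21 in set A. The solved regions leave out the most significant rows and differ between libraries, so these medians compare unlike subsets. The part of depth was not tested.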
